A study of Glycine max with 20 samples.

Results

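The 6 ACC oxidase genes described here, Glyma.09G008400, Glyma.15G112700, Glyma.02G268000, Glyma.14G049500, Glyma.07G264200 and Glyma.17G009800, were measured in seed coats of a minute hilum soybean isoline and its standard parent. They were chosen by name, as soybean genes whose best Arabidopsis match is AT1G05010 (an ACC oxidase, also called the ethylene-forming enzyme), and as the ones expressed above a low level in these libraries, so their levels and isoline differences were known when they were chosen. They are 6 of 12 genes with that match, among 56044 genes (88647 gene models) in the table. The first splice model of each gene was used.

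The UC413 isoline (ii R t mi G) has a small hilum, and cracks form around it late in seed maturation. UC7 (Clark 63, ii R T Mi g) is the standard line with a normal hilum, to which UC413 had been backcrossed repeatedly. Both are homozygous lines and share the ii and R alleles. They differ at the T and G loci as well as at mi, so that effects of these 3 loci, and of other introgressed DNA, cannot be told apart. RNA-Seq libraries came from the extended hilum region (EH, the hilum with a small ring of seed coat around it) and from whole seed coats (WS). For each isoline the extended hilum had 2 libraries from seeds of 10 to 25 mg fresh weight (EH10), 2 from seeds of 25 to 50 mg (EH25), 2 from seeds of 50 to 100 mg (EH50) and 1 from seeds of 100 to 200 mg (EH100). Of whole seed coats there was a single library per isoline at each of the first 3 weights (WS10, WS25 and WS50). This gave 10 UC413 libraries and 10 UC7 libraries.

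Ethylene is made from methionine by way of S-adenosylmethionine. ACC synthase turns S-adenosylmethionine into ACC (1-aminocyclopropane-1-carboxylic acid), and ACC oxidase turns ACC into ethylene. The gas is bound by membrane receptors and is known in plants for roles in ripening, senescence, abscission and growth. ACC oxidases form a gene family, and soybean genes often occur as pairs of close copies on different chromosomes.

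Levels are given as RPKM, alignments to a model normalised to the length of the model and to the total alignments of the library. The UC413 libraries held 91768975 to 122986943 alignments and the UC7 libraries 93354715 to 128803969, counted from the RPKM steps, so that 3 alignments to Glyma.09G008400 were worth 0.0158 to 0.0218 RPKM in UC7. Where libraries were compared, RPKM was first divided by a size factor per library, which was 1.10 to 1.18 in UC413 and 0.545 to 1.12 in UC7 (median of ratios over 20 libraries). These are called scaled RPKM. The 17 seed coat marker genes summed to 204 to 664 RPKM in UC413 libraries and 193 to 594 RPKM in UC7 libraries. The EH25 replicate 1 libraries stood closer to whole seed coat than their partners did. Across 60196 models the log2 values of UC413 EH25 replicate 1 correlated with UC413 WS25 at 0.976 and with replicate 2 at 0.973, and those of UC7 EH25 replicate 1 correlated with UC7 WS25 at 0.968 and with replicate 2 at 0.927. Replicate 2 correlated with WS25 at 0.941 in UC413 and 0.893 in UC7.

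The sequence shown lies at Glyma.09G008400 on chromosome 9, where amplicons of its promoter, reaching into the gene, were sequenced in the study. It is shown because, of the 6 genes, this one differed most between the isolines. The UC413 and UC7 amplicons were the same over 1479 bases, and the amplicon of the cultivar Williams was 1501 bases long and differed from them by 1 gap of 22 bases. The gap lay in a run of AT repeats, given in capitals with 60 bases on each side, 5′ to 3′.
UC413: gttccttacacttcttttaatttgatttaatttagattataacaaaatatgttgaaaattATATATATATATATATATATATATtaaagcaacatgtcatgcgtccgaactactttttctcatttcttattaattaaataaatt
UC7: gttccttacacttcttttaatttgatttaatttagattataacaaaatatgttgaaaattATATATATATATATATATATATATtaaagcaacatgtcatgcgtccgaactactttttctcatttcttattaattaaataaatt
Williams: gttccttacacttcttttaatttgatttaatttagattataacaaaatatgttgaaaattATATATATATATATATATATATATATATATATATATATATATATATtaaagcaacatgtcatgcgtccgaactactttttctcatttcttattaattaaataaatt
The run held 12 AT units in UC413 and in UC7, against 23 in Williams. Nothing in this window separated the isolines whose Glyma.09G008400 levels are given next.

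Glyma.09G008400, which codes for a protein of 318 residues, was abundant in every UC413 library and close to 0 in every UC7 library. In UC413 it had 179.4 and 147 RPKM at EH10, 66.9 and 203 RPKM at EH25, 136 and 171.1 RPKM at EH50 and 33.6 RPKM at EH100. In UC7 it had 0.0158 and 0.0354 RPKM at EH10, 0.0664 and 0.117 RPKM at EH25, 0.0218 and 0.0739 RPKM at EH50 and none at EH100. Whole seed coats had 42.9, 53.3 and 62.2 RPKM at WS10, WS25 and WS50 of UC413, against 0.0532, 0.115 and 0.00584 RPKM in UC7. The lowest UC413 library thus lay far above the highest UC7 library. The UC7 values rested on 0 to 19 alignments a library, and the UC413 values on 5861 to 34372.

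On scaled RPKM the UC413 group means of Glyma.09G008400 were 3848-fold those of UC7 at EH10, 1122-fold at EH25 and 2540.1-fold at EH50. These ratios are a description with no test, since the gene was chosen with them known. At EH100 the ratio was at least 1539.7, taking 3 alignments as the limit for UC7. The size of these ratios is loose, because the UC7 means rest on few alignments. On RPKM as deposited they were 6375 at EH10, 1466 at EH25 and 3216 at EH50. Without UC413 EH25 replicate 2 the EH25 ratio was 552, and without UC413 EH25 replicate 1 it was 1691. Without UC7 EH50 replicate 2, which leaves 3 alignments in UC7, the EH50 ratio was 6226, and without UC7 EH50 replicate 1 it was 1596.

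Glyma.15G112700, also of 318 residues and paired here with Glyma.09G008400 for its like pattern, had the same shape at a lower level. In UC413 it had 66.6 and 65.1 RPKM at EH10, 26.4 and 96.2 RPKM at EH25, 50.6 and 57.7 RPKM at EH50 and 7.84 RPKM at EH100. In UC7 it had 0.0329 and 0.0246 RPKM at EH10, 0.0692 and 0.0644 RPKM at EH25, 0.0151 and 0.118 RPKM at EH50 and none at EH100. Its whole seed coat values were 11.4, 22.4 and 17.3 RPKM at WS10, WS25 and WS50 of UC413, against 0.0554, 0.0974 and 0.0182 RPKM in UC7. The isolines did not overlap in any tissue or stage. Scaled means were 1245-fold higher in UC413 at EH10, 714-fold at EH25 and 631-fold at EH50, again with no test, and at least 345-fold at EH100. For Glyma.15G112700 the ratios on RPKM as deposited were 2291, 918 and 812 at these 3 stages. Without UC413 EH25 replicate 2 its EH25 ratio was 305, and without UC413 EH25 replicate 1 it was 1123. Its EH50 ratio was 350.4 without UC7 EH50 replicate 1 and 3155 without UC7 EH50 replicate 2, which leaves 2 alignments in UC7.

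**Figure D1:**
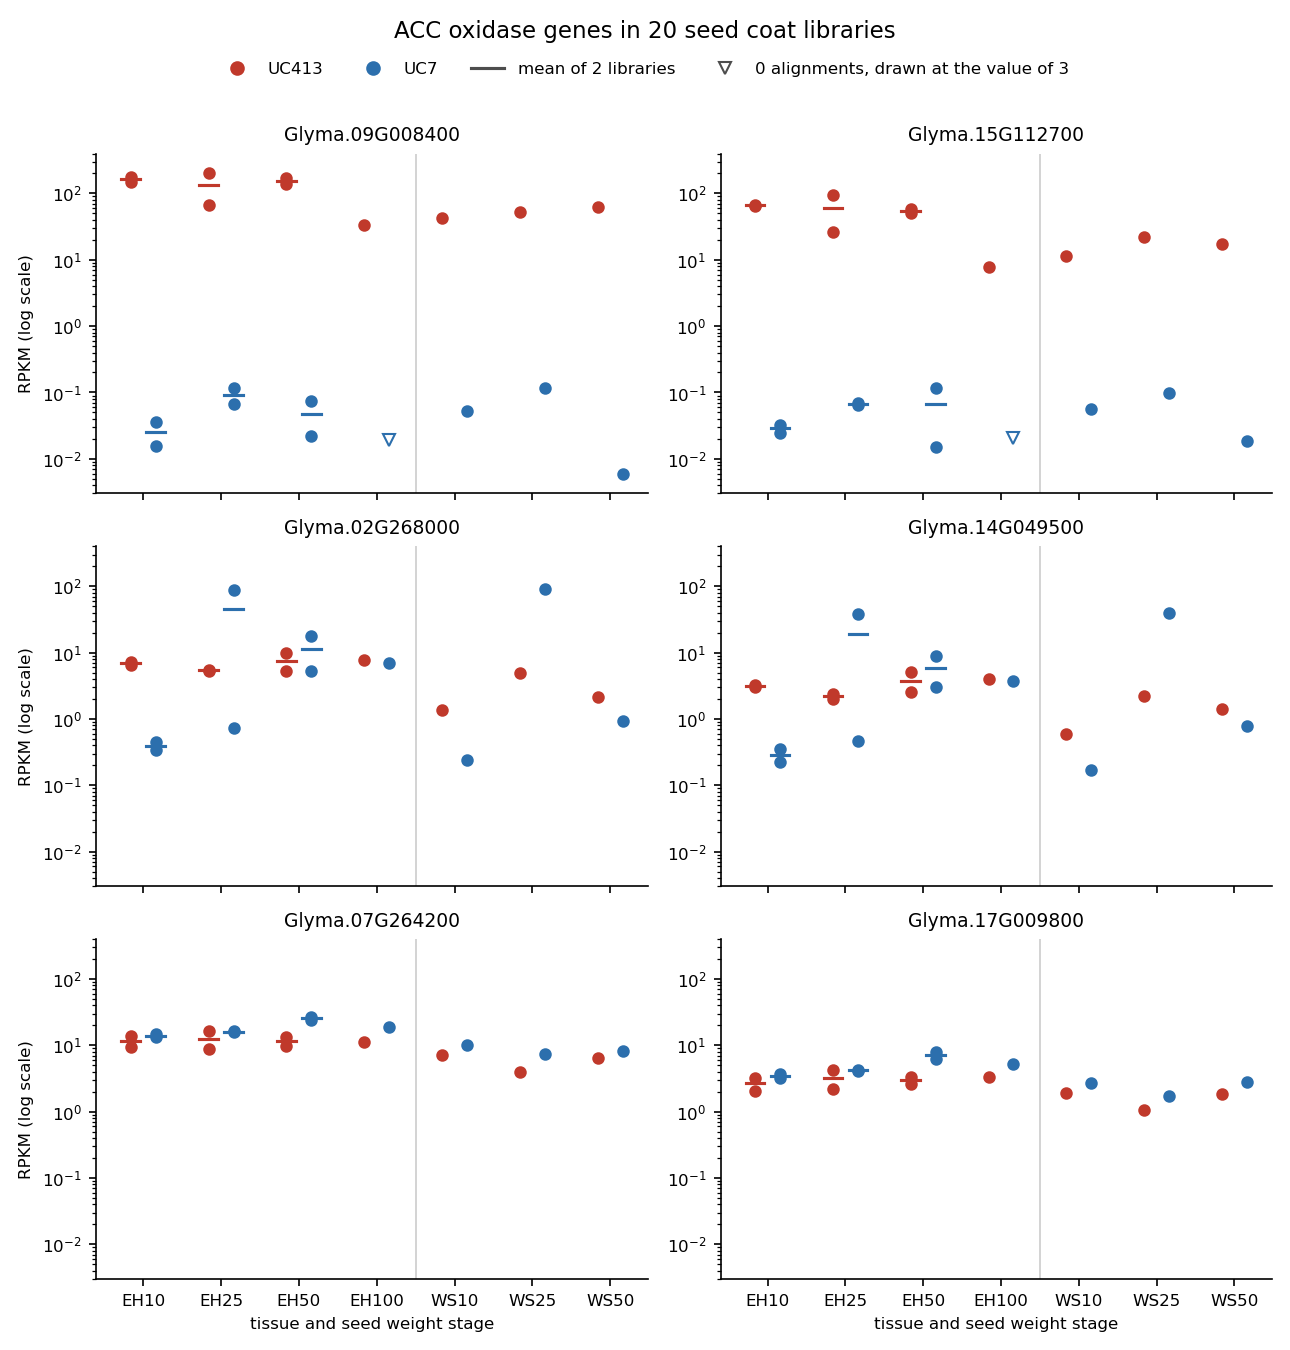
RPKM (log axis) of the 6 ACC oxidase genes in each of 20 libraries, with UC413 in red left of UC7 in blue, points for libraries, bars for means of 2 libraries, and open triangles for UC7 EH100 libraries with 0 alignments, drawn at the value of 3. Glyma.09G008400 lies between 33.6 and 203 RPKM in UC413 and at or below 0.117 RPKM in UC7, and Glyma.02G268000 and Glyma.14G049500 have 2 high UC7 libraries, EH25 replicate 1 and WS25.

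The isoline difference was also fitted over the libraries that have 1 sample a group (EH100, WS10, WS25 and WS50), with tissue and stage as a covariate. The genes were chosen with these libraries known too, and Glyma.09G008400 and Glyma.15G112700 passed the filter on low values through UC413 alone, so the fit is a description and no p-value is given. Of the 6 genes 2 were past an adjusted p of 0.05 by limma, beside 0.0292% of 58162 models, and nothing is read from that count. Glyma.09G008400 had a log2 ratio of 7.30 ± 0.17 (SE, 4 libraries an isoline) and Glyma.15G112700 one of 5.54 ± 0.21. Both were higher in UC413 in 4 of 4 pairs of libraries. The fitted sizes depend on the value of 0.25 added before taking logs, because UC7 is near 0. Adding it also flattens the spread of the UC7 values, so the SE of these 2 genes understates how loose the ratios are. Without it the scaled log2 ratio of Glyma.09G008400 was 8.87 at WS25 and 13.4 at WS50. Over 17 alternatives the fitted log2 ratio ran from 5.475 to 10.85 for Glyma.09G008400 and from 3.778 to 8.828 for Glyma.15G112700.

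Glyma.02G268000 and Glyma.14G049500, both of 315 residues, did not follow the first pair. Glyma.02G268000 had 6.53 and 7.31 RPKM at EH10 of UC413, 5.41 and 5.34 RPKM at EH25, 9.85 and 5.33 RPKM at EH50 and 7.84 RPKM at EH100. In UC7 it had 0.346 and 0.442 RPKM at EH10, 88.7 and 0.726 RPKM at EH25, 5.22 and 17.8 RPKM at EH50 and 6.87 RPKM at EH100. The UC413 libraries were even, while UC7 spanned the lowest and the highest extended hilum values of the gene. At EH10 both UC413 libraries were above both UC7 libraries, and at EH25 and EH50 the isolines overlapped. In whole seed coats Glyma.02G268000 had 1.38, 4.92 and 2.17 RPKM at WS10, WS25 and WS50 of UC413, against 0.238, 91.2 and 0.935 RPKM in UC7. UC413 was thus the higher isoline at WS10 and WS50 and the lower one at WS25.

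Glyma.14G049500 repeated this library by library. It had 3.04 and 3.23 RPKM at EH10 of UC413, 2.03 and 2.36 RPKM at EH25, 5.02 and 2.55 RPKM at EH50 and 3.99 RPKM at EH100. In UC7 it had 0.223 and 0.348 RPKM at EH10, 38.3 and 0.459 RPKM at EH25, 2.98 and 8.73 RPKM at EH50 and 3.72 RPKM at EH100. Whole seed coats had 0.600, 2.19 and 1.39 RPKM in UC413 at WS10, WS25 and WS50, against 0.173, 39.5 and 0.785 RPKM in UC7. The high UC7 libraries were again EH25 replicate 1 and WS25, both from seeds of 25 to 50 mg. Over the single libraries the fitted log2 ratios of UC413 over UC7 were -0.36 ± 0.87 for Glyma.02G268000 and -0.62 ± 0.77 for Glyma.14G049500 (SE).

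Other genes parted the 2 UC7 EH25 libraries in the same way. Of the models kept, 927 (of 634 genes) were at least 4-fold higher in replicate 1 than in replicate 2 and 26 were at least 4-fold lower. Of the 927, 84.3% were also at least 4-fold higher in UC7 WS25 than in replicate 2. Replicate 2 is the low library in both comparisons, which favours a high share in advance. The share over all models was not taken, so nothing is read from this one. Glyma.02G268000 ranked high among the 927, with 30 of 60196 models differing as much or more between the replicates.

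Markers of other seed parts were listed beside this pair. The 21 embryo or cotyledon marker genes summed to 56.2 RPKM in UC7 EH25 replicate 1, 21.8 RPKM in replicate 2 and 91.6 RPKM in UC7 WS25. The sums were 22.8 and 11.1 RPKM in the UC413 EH25 libraries and 50.8 RPKM in UC413 WS25. They were far higher at EH100, with 283 RPKM in UC413 and 792 RPKM in UC7, where Glyma.02G268000 had 7.84 and 6.87 RPKM. Of these markers, 1 to 5 genes a library were at 0, and the LEC1-like Glyma.07G180300 was at 0 in all 20. The 36 endosperm marker genes summed to 0.258 to 2.39 RPKM, with 19 to 31 genes at 0 in each library, and were highest in UC7 WS25 (2.39 RPKM), with 1.63 RPKM in UC7 EH25 replicate 1 and 0.622 RPKM in replicate 2. Their part in the levels of the pair was not tested. In tissue RNA, more cells of one kind and more transcript per cell cannot be told apart.

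Glyma.07G264200 (318 residues) and Glyma.17G009800 (319 residues) were the steadiest genes. Glyma.07G264200 had 13.9 and 9.49 RPKM at EH10 of UC413, 8.70 and 16.2 RPKM at EH25, 9.72 and 13.2 RPKM at EH50 and 11.3 RPKM at EH100. In UC7 it had 13.3 and 14.7 RPKM at EH10, 16.3 and 15.9 RPKM at EH25, 27.0 and 23.9 RPKM at EH50 and 19.01 RPKM at EH100. Its whole seed coat levels were 7.07, 3.94 and 6.40 RPKM at WS10, WS25 and WS50 of UC413, against 9.99, 7.47 and 8.13 RPKM in UC7. As deposited, the isolines overlapped at EH10 and EH25 and did not at EH50, where UC413 was lower. After scaling UC413 was lower without overlap at all 3 stages, the scaled mean being 0.471, 0.600 and 0.370 of the UC7 mean at EH10, EH25 and EH50.

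Glyma.17G009800 was the lower gene of this pair. It had 3.26 and 2.07 RPKM at EH10 of UC413, 2.19 and 4.32 RPKM at EH25, 2.65 and 3.32 RPKM at EH50 and 3.29 RPKM at EH100. In UC7 it had 3.19 and 3.74 RPKM at EH10, 4.06 and 4.32 RPKM at EH25, 7.93 and 6.28 RPKM at EH50 and 5.16 RPKM at EH100. Whole seed coats had 1.90, 1.07 and 1.82 RPKM at WS10, WS25 and WS50 of UC413, against 2.69, 1.75 and 2.77 RPKM in UC7. UC413 was the lower isoline in each of the 4 single pairs for both genes. The log2 ratios over those pairs, -0.68 ± 0.13 for Glyma.07G264200 and -0.62 ± 0.10 for Glyma.17G009800 (SE, limma), are a description for the same reason.

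Glyma.17G009800 was the member with the lowest peak, 7.93 RPKM, and Glyma.14G048900 had the highest peak of the 6 genes left out, 1.66 RPKM. The others left out peaked at 1.53 RPKM (Glyma.14G049000), 1.42 RPKM (Glyma.14G049200), 0.451 RPKM (Glyma.02G268500), 0.233 RPKM (Glyma.02G268200) and 0.205 RPKM (Glyma.08G050400). Glyma.14G048900, numbered close to Glyma.14G049500 on chromosome 14, had 1.66 RPKM in UC7 EH25 replicate 1, 0.198 RPKM in replicate 2 and 1.66 RPKM in UC7 WS25. Glyma.14G049000 and Glyma.14G049200 were likewise high in the first and last of these (1.25 and 1.53 RPKM, and 1.38 and 1.42 RPKM) and low in replicate 2 (0.159 and 0.202 RPKM). How far reads of Glyma.14G049500 align to these neighbours was not tested.

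Summed over the 6 genes, UC413 had 65.2 to 327 RPKM a library and UC7 had 12.6 to 147 RPKM. Glyma.09G008400 made up 49.5% to 68.1% of the sum in the UC413 libraries and at most 0.545% in the UC7 libraries. In UC7 the main gene was Glyma.07G264200 in 8 of 10 libraries, with 42.0% to 77.8% of the sum. In UC7 EH25 replicate 1 and UC7 WS25 it was Glyma.02G268000, with 60.1% and 65.1%. In UC413 EH100, Glyma.09G008400 still led with 49.5%.

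**Figure D2:**
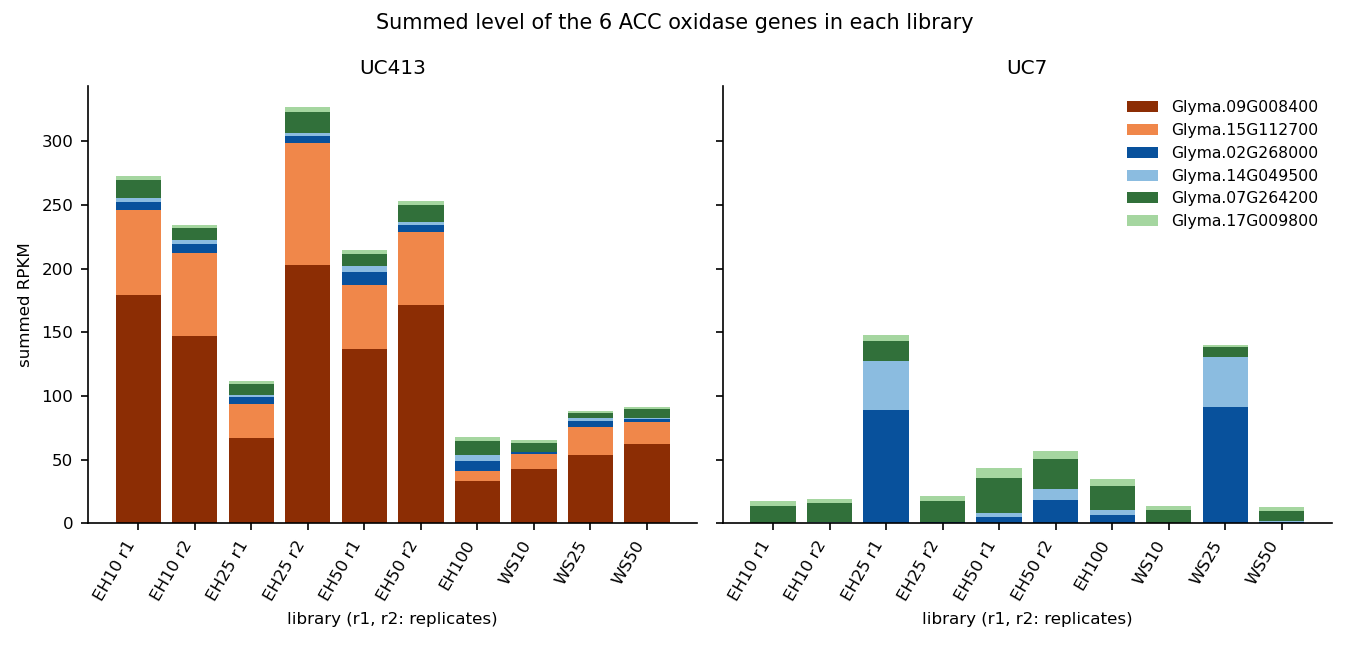
Stacked bars of the summed RPKM of the 6 genes in each library, UC413 on the left and UC7 on the right, with r1 and r2 for replicates. The UC413 bars are mostly Glyma.09G008400 and Glyma.15G112700, and the 2 tall UC7 bars (147 RPKM in EH25 replicate 1 and 140.1 RPKM in WS25) are mostly Glyma.02G268000 and Glyma.14G049500.

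Changes with seed weight were tested in the 12 extended hilum libraries that have a partner (EH10 to EH50). In UC413 none of the 6 genes was called from EH10 to EH25 (limma; 0 with an unadjusted p under 0.05 and 0 by limma-voom), where 0% of 57568 models were called, limma-voom called 0 and 3359 had an unadjusted p under 0.05. From EH25 to EH50 none was called (5.48% of models), nor from EH10 to EH50 (15.0% of models), and here too no unadjusted p was under 0.05 and limma-voom called 0 of the 6. Of all models, 12085 and 16067 had an unadjusted limma p under 0.05 in these 2 comparisons. The log2 ratio of EH50 over EH10 was -0.02 ± 0.40 for Glyma.09G008400 and -0.22 ± 0.45 for Glyma.15G112700 (SE). The 6 genes had a median log2 ratio of 0.09 there, against 0.01 over all models. For Glyma.02G268000 the log2 ratio of EH50 over EH10 was 0.13 ± 1.52 and for Glyma.14G049500 it was 0.24 ± 1.35. The SE of a gene was pooled over both isolines, and for this pair it takes in the wide spread of the UC7 EH25 replicates. These tests could therefore miss a change of the pair in UC413. At EH100 Glyma.09G008400 had a scaled level 21.8% of its UC413 EH50 mean and Glyma.15G112700 one of 14.4%, below both EH50 libraries in each case. EH100 has 1 library, so that this fall was not tested. Glyma.07G264200, at 98.3%, stayed within its EH50 libraries.

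In UC7 no gene was called from EH10 to EH25 (0.155% of models), from EH25 to EH50 (1.18%) or from EH10 to EH50 (11.4%). Limma-voom called 0 of the 6 in each, and an unadjusted p under 0.05 was found for 2, 1 and 2 of them. Of all 57568 models, 7045, 7975 and 14668 had an unadjusted limma p under 0.05 in these comparisons. Glyma.02G268000 had log2 ratios of 3.63 ± 1.52 (EH25 over EH10) and 3.68 ± 1.52 (EH50 over EH10), with limma adjusted p of 0.379 and 0.162, and Glyma.14G049500 had 3.10 ± 1.35 and 3.12 ± 1.35 (adjusted p = 0.397 and 0.182). Without UC7 EH25 replicate 2 the log2 ratios of EH25 over EH10 were 6.84 for Glyma.02G268000 and 5.95 for Glyma.14G049500, and EH50 was below EH25 (-3.15 and -2.83). Without replicate 1, EH50 was above EH25 (3.26 and 2.86). The EH50 over EH10 log2 ratios without replicate 1 stayed at 3.68 for Glyma.02G268000 and 3.12 for Glyma.14G049500. Leaving out either library leaves 1 in that group, so the wide spread of its replicates no longer enters the pooled SE. For that reason no p-value is given for these fits. The median log2 ratio of EH50 over EH10 was 0.48 for the 6 genes, against 0.01 over all models. On RPKM as deposited 4 of the 6 were called higher at EH50 than at EH10 in UC7 (Glyma.02G268000, Glyma.14G049500, Glyma.07G264200 and Glyma.17G009800), where the median of all models was itself 0.41.

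**Figure D3:**
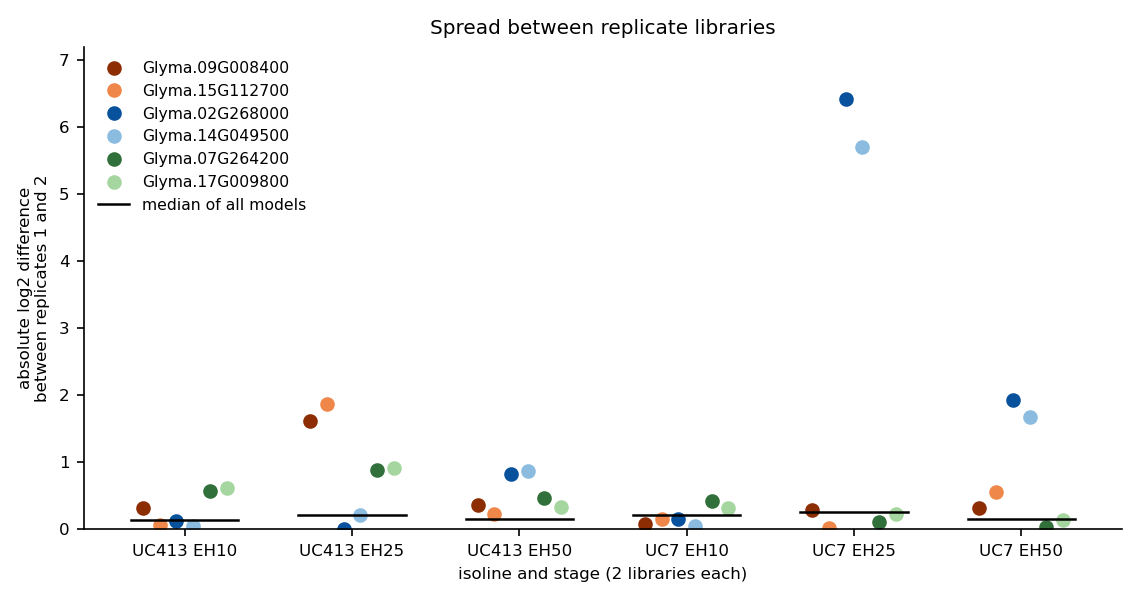
Absolute difference between the replicate libraries of a group, in log2(scaled RPKM + 0.25), for the 6 genes in 6 groups of 2 extended hilum libraries, with black lines for the median over 60196 models. Glyma.02G268000 (6.43) and Glyma.14G049500 (5.71) stand out in UC7 EH25, and Glyma.09G008400 (1.61) and Glyma.15G112700 (1.87) in UC413 EH25.

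Which genes differed most between replicates changed with the group. In UC7 EH25 the scaled levels of Glyma.02G268000 differed 110.1-fold and those of Glyma.14G049500 75.2-fold, and in UC7 EH50 they differed 3.92-fold and 3.37-fold. In UC413 EH25 Glyma.02G268000 differed 1.00-fold, while Glyma.09G008400 differed 3.06-fold and Glyma.15G112700 3.68-fold, more than in 99.8% and 99.9% of the models. In UC413 EH50 it was Glyma.14G049500 (1.92-fold) and Glyma.02G268000 (1.80-fold) that differed most, more than 98.2% and 97.7% of the models, and in UC413 EH10 Glyma.17G009800 (1.60-fold) and Glyma.07G264200 (1.498-fold). Glyma.09G008400 differed 1.25-fold in UC413 EH10 and 1.28-fold in UC413 EH50. UC413 EH25 replicate 1, with 66.9 RPKM of Glyma.09G008400, lay nearer to UC413 WS25 (53.3 RPKM) than to replicate 2 (203 RPKM). Glyma.07G264200 differed at most 1.88-fold (UC413 EH25) and Glyma.17G009800 at most 2.00-fold (UC413 EH25), and UC7 EH25 gave 1.08-fold and 1.18-fold.

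Extended hilum was compared with whole seed coat at the 10, 25 and 50 stages, with stage as a covariate within each isoline. The genes were chosen with the levels in these libraries known. The paper had already described Glyma.09G008400 and Glyma.15G112700 as higher in the hilum region. The p-values for region thus belong to differences that could be seen beforehand. In UC413, 4 of the 6 genes rose in the extended hilum (3 by limma-voom) and none fell (0 at an unadjusted p under 0.05 and 0 by limma-voom), where 10.7% of 59783 models were called. Glyma.15G112700 had a log2 ratio of 1.75 ± 0.32 (SE, limma adjusted p = 0.00401), Glyma.09G008400 one of 1.43 ± 0.26 (adjusted p = 0.00443), Glyma.07G264200 one of 0.99 ± 0.22 (adjusted p = 0.0139) and Glyma.17G009800 one of 0.77 ± 0.22 (adjusted p = 0.0386). Each of these genes was higher in both extended hilum libraries than in the whole seed coat library at all 3 stages. For Glyma.09G008400 and Glyma.15G112700 the SE was pooled with UC7 libraries near 0, where adding 0.25 flattens the spread. The replicate differences of Glyma.09G008400 in log2 were 0.0753, 0.282 and 0.308 in UC7 at EH10, EH25 and EH50. In UC413 they were 0.319, 1.61 and 0.361. The UC413 p-values of these 2 genes may therefore be too small. At WS10 Glyma.09G008400 had 26.4% of its scaled EH10 mean, and Glyma.15G112700 17.4%. The contrast was weaker at the later stages. Glyma.09G008400 had 40.4% of its scaled EH25 mean at WS25 and 40.5% of its EH50 mean at WS50. For Glyma.15G112700 the share was 37.3% at WS25, and at WS50 it lay between its WS10 and WS25 shares. Without UC413 WS10 the call of Glyma.09G008400 was lost (adjusted p = 0.0516), and without UC413 WS25 or UC413 WS50 that of Glyma.07G264200 (0.14 and 0.0509). Without UC413 EH25 replicate 1 the ratios of Glyma.09G008400 and Glyma.15G112700 were 1.68 and 2.06, in a fit that no longer holds the spread between these replicates. Glyma.17G009800 was called under 15 of 28 alternatives, with adjusted p of 0.0236 to 0.301.

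In UC7, 2 of the 6 rose in the extended hilum (2 by limma-voom) and none fell (0 at an unadjusted p under 0.05 and 0 by limma-voom), where 23.8% of models were called. They were Glyma.07G264200, with a log2 ratio of 1.47 ± 0.22 (SE, limma adjusted p = 0.00103), and Glyma.17G009800, with 1.31 ± 0.22 (adjusted p = 0.00184), each higher in both extended hilum libraries at all 3 stages. On RPKM as deposited both were still called higher, although the median of all models was -0.38. Glyma.09G008400 and Glyma.15G112700 had log2 ratios of 0.06 ± 0.26 and 0.06 ± 0.32, at levels near the limit of detection. Glyma.02G268000 was not called in either isoline (1.27 ± 1.18 in UC413 and 0.38 ± 1.18 in UC7), nor was Glyma.14G049500 (1.04 ± 1.04 and 0.23 ± 1.04). The SE of a gene was pooled over both isolines. For these 2 genes it takes in the UC7 EH25 replicates, which differed 110.1-fold and 75.2-fold. Their UC413 replicates differed at most 1.80-fold and 1.92-fold. The lack of a UC413 call thus rests in part on UC7 spread, and the test cannot exclude a region difference in UC413. Without UC7 EH25 replicate 1 the UC7 ratio of Glyma.02G268000 was -0.19 and that of Glyma.14G049500 -0.29. Whether the ratios of the isolines differ was not tested. The median over the 6 genes was 1.16 in UC413 and 0.30 in UC7, against -0.01 and 0.00 over all models.

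**Figure D4:**
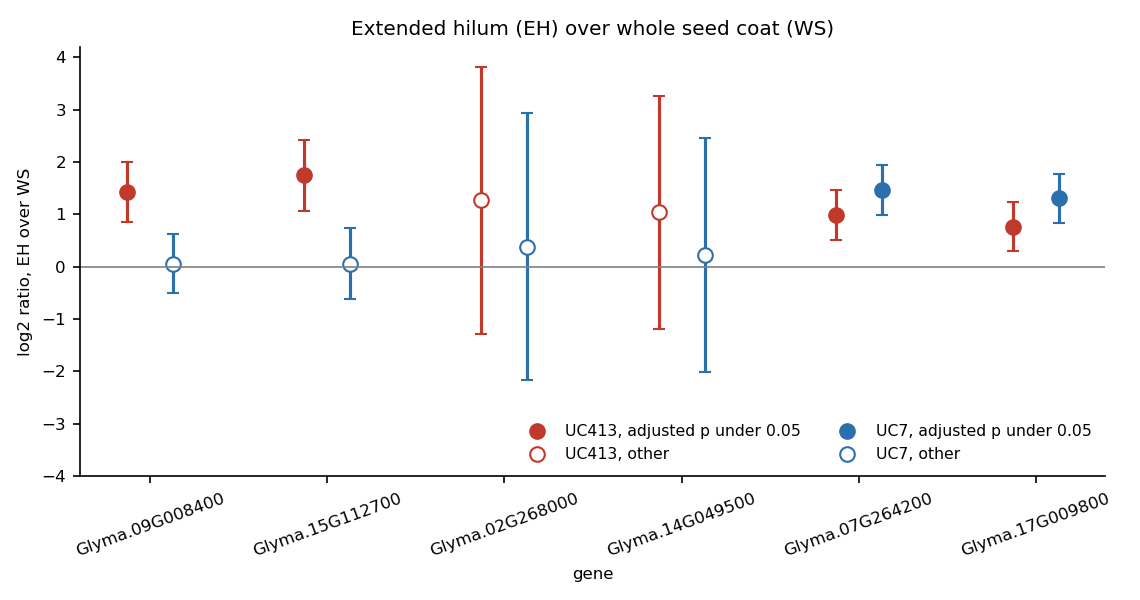
Log2 ratio of extended hilum over whole seed coat for each gene, UC413 in red and UC7 in blue, with 95% intervals from limma and filled points for adjusted p under 0.05. The intervals rest on the spread between libraries, pooled over both isolines. Glyma.09G008400, Glyma.15G112700, Glyma.07G264200 and Glyma.17G009800 lie above 0 in UC413, with only Glyma.07G264200 and Glyma.17G009800 of the 6 called in UC7, and the intervals of Glyma.02G268000 and Glyma.14G049500 span 0.

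The genes moved in pairs. Over 20 libraries, on log2(scaled RPKM + 0.25), Pearson r was 0.996 for Glyma.09G008400 with Glyma.15G112700, 0.993 for Glyma.02G268000 with Glyma.14G049500 and 0.985 for Glyma.07G264200 with Glyma.17G009800. Between genes of different pairs it was -0.58 to 0.08, a range that mixes isolines of very different levels. Within UC413 genes of different pairs correlated at 0.391 to 0.633, and within UC7 at -0.116 to 0.404. The libraries share isolines and stages, so these are descriptions. Within the 10 UC413 libraries r was 0.979, 0.972 and 0.976 for the 3 pairs, and within the 10 UC7 libraries it was 0.802, 0.999 and 0.979. The first pair in UC7 rests on 0 to 20 alignments a gene. Reads that align to both genes of a pair would enter both levels, and their part in r was not tested.

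The level ratio within a pair was taken from RPKM as deposited. Glyma.15G112700 had 0.233 to 0.475 of the RPKM of Glyma.09G008400 in UC413, with the lowest ratio at EH100. In UC7 that ratio was 0.548 to 3.125 over the 9 libraries with alignments to both, on few alignments. Glyma.14G049500 had 0.375 to 0.639 of the RPKM of Glyma.02G268000 in UC413 and 0.432 to 0.839 in UC7. Glyma.17G009800 had 0.219 to 0.291 of Glyma.07G264200 in UC413 and 0.235 to 0.341 in UC7. For the second pair the 3 non-stranded UC413 libraries (0.509 to 0.639) lay above the 7 stranded ones (0.375 to 0.479), while in UC7 the kits overlapped (0.541 to 0.839 in non-stranded and 0.432 to 0.787 in stranded libraries). The part of the library kit in these ratios was not tested. Reads that align to both genes of a pair would count for both, so that their separate levels are uncertain by the share of such reads. Neither that share nor the identity of the sequences was measured here. Reads are also shared between splice models: the 5 models of Glyma.02G268000 correlated with the first at 0.999 or more.

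**Figure D5:**
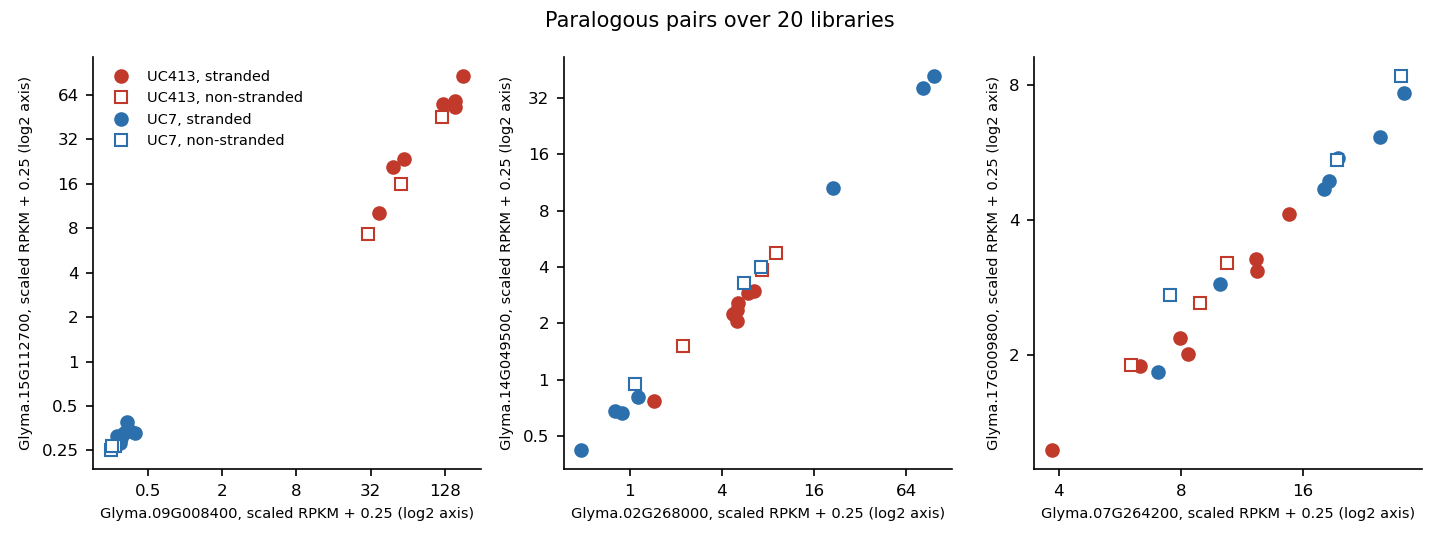
Scaled RPKM plus 0.25 (log2 axes) of the second gene of each pair against the first, 20 libraries, UC413 in red and UC7 in blue, filled circles for stranded and open squares for non-stranded libraries. Points follow a line in each pair (Pearson r of 0.996, 0.993 and 0.985), and the isolines form separate clusters for Glyma.09G008400 and Glyma.15G112700.

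Other genes with a similar pattern were taken as the 3 with the highest Pearson r to each member over the 20 libraries. For Glyma.09G008400 they were Glyma.06G067100 (a PX domain protein, r = 0.948), Glyma.17G035400 (like WRKY23, r = 0.945) and Glyma.05G114000 (pectin lyase-like, r = 0.944). Glyma.05G114000 had 0.537 to 8.48 scaled RPKM in UC413 libraries and 0 to 0.0782 in UC7 libraries, and Glyma.17G035400 had 1.09 to 6.06 and 0.133 to 0.364. Glyma.06G067100 differed far less, with 8.40 to 9.85 scaled RPKM in UC413 and 6.88 to 8.01 in UC7. Glyma.15G112700 shared 2 of these, Glyma.06G067100 and Glyma.05G114000, and added Glyma.05G009000 (early nodulin-related, r = 0.945).

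For Glyma.02G268000 the most similar genes were Glyma.08G281700 (NPH3 family, r = 0.919), Glyma.12G198200 (S-locus lectin kinase, r = 0.918) and Glyma.02G070000 (like NAC047, r = 0.914). Glyma.14G049500 had the first 2 of these and Glyma.12G066000 (like MYB59, r = 0.920). For both Glyma.07G264200 and Glyma.17G009800 the closest was Glyma.08G120100 (like NIP1;2, an aquaporin-type channel, r = 0.942 and 0.955). The next were Glyma.13G060700 (a v-SNARE, r = 0.939) and Glyma.06G277400 (DUF640, r = 0.936) for Glyma.07G264200, and Glyma.11G084400 (phosphoserine aminotransferase, r = 0.946) and Glyma.05G056500 (like adenine phosphoribosyltransferase 4, r = 0.924) for Glyma.17G009800.

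Most tested genes of the rest of the ethylene pathway did not pass the test between the isolines. Of 107 genes in lists outside the AT1G05010 group, 72 were high enough to be tested in the extended hilum. In UC413 8 rose and 4 fell at EH10, where 3.95% of models were called higher and 2.41% lower. At EH25 1 rose and 0 fell, with 1.46% and 0.747% of models called, and at EH50 7 rose and 1 fell, with 4.41% and 3.66%. At EH25 11 of the genes fell at an unadjusted p under 0.05 and 0 by limma-voom. Of all 57568 models, 10936 had an unadjusted limma p under 0.05 at EH25, in either direction, so nothing is read from the 11. Leaving out either UC413 EH10 library or UC7 EH10 replicate 1 gave no call at EH10, and without UC7 EH25 replicate 1 the counts were again 8 and 4. Leaving out a single UC413 or UC7 EH50 library left 0 or 1 genes called higher at EH50. The median log2 ratio of the 72 genes was -0.01, 0.01 and -0.01 at EH10, EH25 and EH50, against -0.02, -0.01 and -0.02 over all models. Scaling matters here: on RPKM as deposited 49 rose and 0 fell at EH10, where the median of all models was 0.71 and 99.0% of called models were higher, against 62.1% after scaling.

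Upstream of ACC oxidase, both tested ACC synthase genes (of 18) fell at EH10 in UC413, Glyma.05G211700 with a log2 ratio of -1.44 ± 0.36 and Glyma.08G018000 with -1.27 ± 0.31 (SE, limma adjusted p = 0.0464 and 0.0417). The paper describes other ACC synthase genes, like Arabidopsis ACS5 and ACS9, as slightly higher in UC413 at EH10, short of its criteria. Those genes were not tested here. Of 8 tested S-adenosylmethionine synthetase genes 2 fell at EH10, Glyma.07G233800 (-0.85 ± 0.22, limma adjusted p = 0.0498) and Glyma.03G184000 (-0.83 ± 0.19, adjusted p = 0.0317). Glyma.03G184000 also fell at EH50 (-1.56 ± 0.19, adjusted p = 0.00353) and was not called at EH25 (-0.79 ± 0.19, adjusted p = 0.0616). None of the 6 genes with other ACC oxidase matches was high enough to be tested. Of the 13 methionine salvage genes tested none was called at any of these stages, and none had an unadjusted p under 0.05.

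Downstream, 4 of 11 tested ethylene receptor genes rose in UC413 at EH10 and 4 at EH50, and none at EH25. None was called lower. At an unadjusted limma p under 0.05, 6, 2 and 6 were higher at EH10, EH25 and EH50. Of all 57568 models, 14307, 10936 and 15890 were under 0.05 at these stages, in either direction. By that measure 2 were lower at each stage, both of them EIN4-like. Among the largest of the calls at EH10 were Glyma.04G147000, like the F-box gene EBF1 (1.46 ± 0.33, adjusted p = 0.0318), Glyma.17G229300, like the receptor partner RTE1 (1.28 ± 0.25, adjusted p = 0.0195), and the EIN4-like receptor Glyma.10G008500 (0.84 ± 0.19, adjusted p = 0.0318). Glyma.04G147000 had a mean of only 1.06 RPKM. Of the 8 tested EBF-like genes, 2 others of higher level were lower at EH10 at an unadjusted limma p under 0.05. At EH50 the largest were Glyma.17G229300 (1.39 ± 0.25, adjusted p = 0.0161), the RAN1-like copper transporter Glyma.08G087300 (0.86 ± 0.15, adjusted p = 0.0144) and the ETR2-like receptor Glyma.10G188500 (0.69 ± 0.13, adjusted p = 0.0185). Glyma.08G087300 was the only call at EH25 (0.68 ± 0.15, adjusted p = 0.0495). No gene of the CTR1, EIN2, EIN3 and EIL or ETO1 and EOL lists was called at any of the 3 stages by limma. At an unadjusted p under 0.05, 6 of these 24 genes were higher at EH10 and 2 at EH50, and 1 was lower at EH25. Beside the counts over all models given above, nothing is read from these unadjusted counts.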

How the data were processed

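RNA-Seq was carried out on extended hilum and whole seed coat tissue. The authors aligned the reads with Bowtie v1 to the soybean gene models and deposited RPKM values per model, with alignments to several models counted for each of them, so that close copies share reads. The authors also used DESeq for their own calls, which were not used here. The deposited RPKM values were whole multiples of 1 alignment for 100% of models (tolerance 0.01), which gave alignments per model and library. Replicates were 2 libraries of a group. Where nothing says that they came from separate plants, p-values measure only the spread between libraries, which may be technical. The intervals drawn come from the limma SE and cover the spread between libraries. Limits taken from alignments cover counting error only.

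Libraries were scaled by size factors (median of ratios), and log2(value + 0.25) was fitted with limma 3.58.1 (R 4.3.3, trended prior) over models with at least 1 RPKM in at least 2 libraries, and with Benjamini-Hochberg adjustment over all models tested (calls at adjusted p under 0.05). Fold changes on this scale understate the change of low genes. Limma was tested on simulated data. The alternatives were RPKM as deposited, upper quartile scaling, pseudocounts, filters, limma-voom on recovered alignments, library kit, an untrended prior, a replicate block, stranded or whole seed coat libraries only, and each library left out. The log2 ratios in stranded or whole seed coat libraries only and the isoline ratios of the first pair under other settings were added after seeing the data. The 6 members and the lists were chosen with earlier results of these data known. Named genes were the members, the other AT1G05010 genes, the 3 genes most similar to each member, and at each stage the 3 called pathway genes with the highest and the 3 with the lowest ratio. Amplicon sequences are the study's own.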

Additional observations from a re-analysis of the deposited data

Results flagged for a closer look

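The isoline ratio of the second pair changed sign between stages. For Glyma.02G268000 the log2 ratio of UC413 over UC7 (scaled RPKM, 1 library an isoline) was 2.36 at WS10, -4.20 at WS25 and 1.23 at WS50. Glyma.14G049500 had log2 ratios of 1.62 at WS10, -4.16 at WS25 and 0.84 at WS50, and of 2.68 at EH10 (2 libraries an isoline) and -0.06 at EH100. Apart from EH10, these stages have 1 library an isoline, so each sign rests on single libraries. At EH25 and EH50, with 2 libraries an isoline, the isolines overlapped for both genes. For Glyma.02G268000, UC7 EH25 replicate 2 (0.726 RPKM) lay below both UC413 EH25 libraries (5.41 and 5.34 RPKM), and replicate 1 (88.7 RPKM) above them. The differences between stages were not tested. At EH100 the sign turned with the scaling, since Glyma.14G049500 had 3.99 RPKM in UC413 and 3.72 RPKM in UC7 as deposited.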

How the results depend on the processing

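With 2 libraries a group, 1 library can decide a call. A fit without 1 of the 2 also loses the spread between them, so a call gained in this way is not read as a change. Leaving out each library in turn, members called higher ranged from 2 to 4 (UC413 extended hilum over whole seed coat), from 2 to 2 (the same in UC7), from 1 to 2 (UC413 over UC7 in single libraries, a description) and from 0 to 2 (UC413 EH50 over EH25 and UC7 EH25 over EH10, EH50 over EH10 and EH50 over EH25), and members called lower from 0 to 1 (single libraries) and from 0 to 2 (UC7 EH50 over EH25). Without UC413 EH25 replicate 2, the log2 ratio of EH50 over EH25 was 1.21 for Glyma.09G008400 and 1.05 for Glyma.15G112700. Without UC7 EH25 replicate 2, EH50 over EH25 reversed to -3.15 for Glyma.02G268000 and -2.83 for Glyma.14G049500, and without replicate 1 it was 3.26 and 2.857. In stranded libraries only, 0 members were called in either isoline for region, with fewer samples. RPKM as deposited called 4 members for UC7 EH50 over EH10.

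Pathway genes called higher, leaving out each library, ranged from 0 to 8 at EH10, from 0 to 3 at EH25 and from 0 to 9 at EH50, and those called lower from 0 to 4, from 0 to 3 and from 1 to 1. RPKM as deposited gave 49 higher and 0 lower at EH10 and 3 higher at EH25. Kit as a covariate gave 2 lower at EH10, 0 higher at EH25 and 4 higher at EH50. No filter gave 1 lower at EH10, 2 higher and 2 lower at EH25 and 3 lower at EH50. A filter at 2 RPKM, a pseudocount of 1 and no trend each gave 0 higher at EH25. The replicate block gave 2 lower at EH10 and 2 higher at EH25, and it called 0 members for seed weight, as without it. It was fitted only to the 12 extended hilum libraries and not to the region or single-library comparisons. The replicate deviations of 15 pairs of groups correlated at -0.425 to 0.468, 8 of them over 0.1, and the labels give no shared batch. At EH50 the number also marks the kit in both isolines (replicate 1 non-stranded, replicate 2 stranded), and those groups had the highest correlation (0.468). The cause of these changes was not tested. Kit as a covariate was not run in the single libraries, where EH100 and WS50 of both isolines are the non-stranded ones and the term is the same as tissue and stage.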
